A study of Homo sapiens with 6 samples.

Results

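Cyclins, cyclin-dependent kinases (CDKs), CDK inhibitors, E2F factors and pocket proteins were followed as H9 cells were turned into arcuate neurons. H9 is an established line of human embryonic stem cells, and the arcuate nucleus is a part of the hypothalamus that regulates feeding. Members were the protein-coding genes of the table with a cyclin symbol of the A to L, T or Y classes, a CDK number, a CDKN name (1 gene of that name excepted) or one of the names CDK5R1, CDK5R2, E2F1 to E2F8, RBL1 and RBL2. This gave 67 of 19838 protein-coding genes, in a table of 61853 genes of all types. Gene activity was measured by total RNA sequencing in 6 libraries. There were 3 libraries from day 30 of differentiation and 3 from day 0.

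The day 30 cells had been grown on matrigel in KSR medium with SHH, purmorphamine, SB431542 and LDN-193189, and were moved stepwise into N2 medium with the same agents. B-27 and DAPT followed, the cells were replated with accutase and a ROCK inhibitor, and BDNF with B-27 was given to the end. The day 0 cells were H9 cells, and the protocol begins with them near confluence on matrigel. Both days rest on 1 cell line, and the labels name no sorting of the neurons. They leave unsaid whether the 3 replicates of a day were grown apart, and every p-value therefore reflects only how these libraries scatter, which may be technical. The series was designed to follow the factors that process ribosomal RNA precursors; how the cell-cycle regulators changed over the same interval is the comparison described here.

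The libraries held 9688839, 12924842 and 5013643 counts on day 30 and 7758817, 7178453 and 8794008 on day 0, and replicate 3 of day 30 was the shallowest. All 8 neuronal markers were higher on day 30 and all 8 pluripotency markers were lower. Of 6 arcuate markers, NKX2-1, ISL1, TBX3 and POMC were higher on day 30, with POMC at 1771, 1684 and 1113 CPM (counts per 1000000 counts of the scaled library) against 1.15, 1.16 and 0.738 CPM on day 0. NPY and AGRP stayed under 1 CPM in every library, so POMC was the only one of the 3 arcuate peptide genes on this list found above that level on day 30. A single library stood apart. The summed level of 8 mesenchymal and neural crest markers was 173, 637 and 4400 CPM in day 30 replicates 1, 2 and 3, against 238, 344 and 322 CPM on day 0. The collagen genes COL1A1, COL1A2 and COL3A1 made up most of the sum in replicate 3, at 1717, 1732 and 854 CPM. Of the other markers on that list, FOXD3 fell, PDGFRB did not pass, and LUM, TWIST1 and DCN were not tested. Without day 30 replicate 3, 17 members passed the test higher on day 30 (38.8% of all tested genes did) and 34 lower (36.1%).

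Cyclins bind and activate CDKs, and their rise and fall drives a cell through its division cycle. D-type cyclins with CDK4 or CDK6 act in G1 phase by phosphorylating RB1 and its relatives RBL1 and RBL2, which releases E2F transcription factors. Cyclin E and cyclin A with CDK2 then act at the start of and during DNA replication, and cyclin A and cyclin B with CDK1 act up to and in mitosis. Inhibitors of the CIP/KIP and INK4 families block these kinases. Other members of the same families have roles outside the cell cycle. CDK5 with its activators acts in neurons that no longer divide. CDK7, CDK8, CDK9, CDK12, CDK13 and CDK19 act on RNA polymerase II and its partners, and CDK7 also activates other CDKs.

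Most S and M phase cyclins and kinases were far lower on day 30 and most D-type cyclins and their kinases were lower by less, while the neuronal CDK5 activators, the INK4 inhibitor CDKN2D and CDK20 were far higher. Of 67 members, 62 had enough reads to be tested, and 36 of them fell and 17 rose, with 9 not passing the test (edgeR quasi-likelihood test, Benjamini-Hochberg adjusted p under 0.05). Among all 18040 genes tested, 36.8% were lower and 39.8% higher, or 76.6% in either direction. By 2-fold or more, 24 members fell and 9 rose, against 24.7% and 29.7% of all tested genes. The members' median log2 change of day 30 over day 0 was −0.60, against 0.08 for all tested genes. A fall of 8-fold or more was measured for 12 members, a size seen for 7.03% of tested genes. The CPM ranges of the days did not overlap for 52 of the 62 members, against 79.5% of all tested genes. In such bulk RNA, fewer cells of a type and less RNA per cell cannot be told apart.

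**Figure D1:**
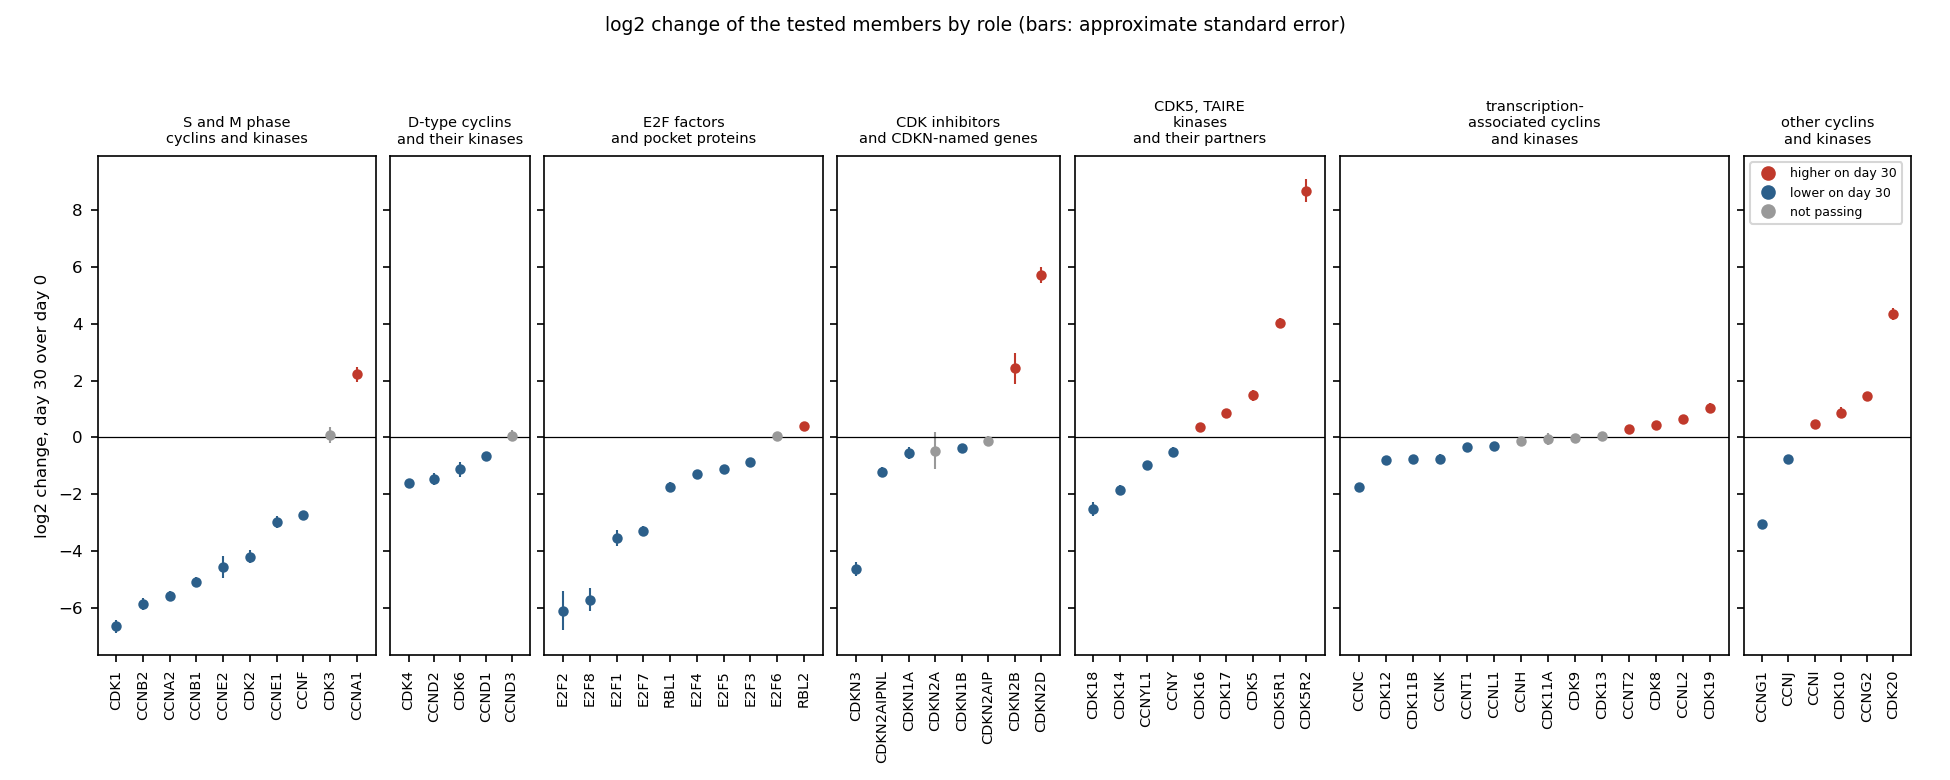
Each point is 1 of the 62 tested members, placed in a panel by role, and the vertical axis is its log2 change of day 30 over day 0 with the approximate standard error as a bar. Red points passed the test higher on day 30, blue points passed lower and grey points did not pass; the S and M phase panel lies mostly at or below −2.72, while CDK5R2 reaches 8.69.

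The promoters of 5 members that changed strongly are shown because members that move with the cell cycle often share short promoter elements. The letters are the 250 bases before a RefSeq start of the gene, on the gene's strand of GRCh38.p14. A RefSeq start can lie downstream of the GENCODE gene start, and the gene positions given in the text are those of GENCODE. The CDK5R1 window lies wholly inside its GENCODE gene, which starts at 32486619. The windows of CDK1, CCNB2, E2F1 and CDKN2D overlap their GENCODE genes in part. Capitals mark matches, on either strand, to the cell-cycle homology region TTTGAA (CHR, read TTCAAA on the other strand), to the CCAAT box (ATTGG on the other strand) and to an E2F element written as TTTCCCGC, TTTCGCGC, TTTGCCGC or TTTGGCGC. CDK1 and CCNB2 were the S and M phase members with the largest falls, E2F1 is the founding E2F factor, and CDKN2D and CDK5R1 rose. These 5 were not chosen by 1 rule. E2F2 fell further than E2F1, and its window held 1 E2F match and no CCAAT box. CDK5R2 rose further than CDK5R1, and its window held 4 CCAAT boxes. The windows are chr10:60778228-60778477 (+) for CDK1, chr15:59104896-59105145 (+) for CCNB2, chr20:33686386-33686635 (−) for E2F1, chr19:10568980-10569229 (−) for CDKN2D and chr17:32486743-32486992 (+) for CDK5R1.
CDK1: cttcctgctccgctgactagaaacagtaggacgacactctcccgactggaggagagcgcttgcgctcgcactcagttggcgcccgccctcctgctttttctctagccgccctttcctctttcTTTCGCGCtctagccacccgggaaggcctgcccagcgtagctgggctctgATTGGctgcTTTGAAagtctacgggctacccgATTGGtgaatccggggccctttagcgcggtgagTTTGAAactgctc
CCNB2: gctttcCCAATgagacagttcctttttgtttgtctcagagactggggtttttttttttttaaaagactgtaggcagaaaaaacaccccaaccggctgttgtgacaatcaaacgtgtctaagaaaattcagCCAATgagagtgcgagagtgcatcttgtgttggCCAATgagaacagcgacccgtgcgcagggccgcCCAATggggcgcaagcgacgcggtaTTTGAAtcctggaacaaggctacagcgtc
E2F1: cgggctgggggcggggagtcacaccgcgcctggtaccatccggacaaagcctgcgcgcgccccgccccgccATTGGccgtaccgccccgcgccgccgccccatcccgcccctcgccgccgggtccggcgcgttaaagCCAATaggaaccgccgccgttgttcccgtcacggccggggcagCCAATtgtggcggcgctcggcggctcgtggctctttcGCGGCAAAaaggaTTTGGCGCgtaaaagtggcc
CDKN2D: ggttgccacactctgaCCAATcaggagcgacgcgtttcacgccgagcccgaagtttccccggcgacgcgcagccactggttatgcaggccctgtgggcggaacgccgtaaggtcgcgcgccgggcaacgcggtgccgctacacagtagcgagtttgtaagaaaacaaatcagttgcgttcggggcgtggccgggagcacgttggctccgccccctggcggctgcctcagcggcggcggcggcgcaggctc
CDK5R1: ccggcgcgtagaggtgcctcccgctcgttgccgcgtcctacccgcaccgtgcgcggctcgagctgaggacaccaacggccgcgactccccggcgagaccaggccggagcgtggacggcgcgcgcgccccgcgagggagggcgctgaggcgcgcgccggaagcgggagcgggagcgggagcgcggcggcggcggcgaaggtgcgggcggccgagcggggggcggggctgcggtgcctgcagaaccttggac

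The CDK1 window held 2 CHR matches, whose first bases lie 69 and 13 bases before the RefSeq start. It also held 2 CCAAT boxes at 78 and 46 bases and 1 E2F match at 128 bases. Of the 2 RefSeq windows of this gene it is the one with more matches. The other held 1 CHR match, 1 CCAAT box and no E2F match. CCNB2 held 1 CHR match at 29 bases and 4 CCAAT boxes. E2F1 held E2F matches at 33 and 20 bases and 3 CCAAT boxes, with no CHR match. CDKN2D held 1 CCAAT box. The CDK5R1 window, which lies inside the GENCODE gene, held none of these letters, and the bases before the GENCODE start were not searched.

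Windows were found for 61 of the 67 members, all but CCNE2, CDK2, CCND1, CCND2, E2F5 and E2F8. Matches were counted in the same 250 bases before a RefSeq start, and a gene with several windows was given its highest count. Of the 12 members that fell by 8-fold or more, 9 had a window. Among those, 8 (88.9%) held a CCAAT box, 4 (44.4%) held 3 or more, 3 (33.3%) held a CHR match and 3 (33.3%) an E2F match. Among the 11185 tested protein-coding genes with a window, the shares were 41.5% for a CCAAT box, 5.41% for 3 or more, 12.4% for a CHR match and 5.4% for an E2F match. Among all 27305 genes with a window they were 37.0%, 3.55%, 16.1% and 3.4%, in the same order. Among the 17 members that rose, 41.2% held a CCAAT box, 11.8% held 3 or more, 5.88% a CHR match and 11.8% an E2F match. For the 21 members with a window that fell by less than 8-fold, the shares were 47.6%, 14.3%, 14.3% and 9.52%, in the same order. CDK5R2, the member with the largest rise, held 4 CCAAT boxes. CDK19 rose, and 1 of its 3 windows held all 3 kinds of match while the others held none. The CHR and E2F matches of members that fell by 8-fold or more were in CDK1, CCNB2 and CDKN3 for the CHR and in CDK1, E2F1 and E2F2 for E2F. These counts describe letters in windows of small groups of genes, and no binding was measured.

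Among the S and M phase cyclins and kinases, 8 of the 10 tested members fell, CCNA1 rose and CDK3 did not pass. Their median log2 change was −4.38, and 36.8% of all tested genes fell. CDK1 (ENSG00000170312.17, chromosome 10, 60778331 to 60794852, hg38), the kinase of mitosis, had 0.926, 1.96 and 2.08 CPM on day 30, against 149.7, 178 and 166 CPM on day 0. The ranges are far apart, and the level was 99.2-fold lower on day 30 (log2 change −6.65 ± 0.21 SE, adjusted p = 1.62e-09, edgeR). Its partner CCNB1 (cyclin B1) had 6.89, 6.87 and 9.81 CPM on day 30 and 213, 282 and 287 CPM on day 0. The log2 change of CCNB1 was −5.09 ± 0.19 (adjusted p = 2.92e-09). Per length, 3.62 ± 0.78 CPM per kb of CCNB1 were left on day 30, against 0.865 ± 0.331 CPM per kb of CDK1 (SD, n = 3). CCNB2 (cyclin B2) had 0.823, 1.81 and 1.7 CPM on day 30 and 79.0, 82.1 and 93.1 CPM on day 0, which is a log2 change of −5.86.

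The members that serve DNA replication fell as well. CCNA2 (cyclin A2), which serves CDK2 in replication and CDK1 before mitosis, had 2.88, 3.1 and 4.53 CPM on day 30 and 139.9, 160.0 and 181 CPM on day 0. Its log2 change was −5.57 ± 0.18 (adjusted p = 1.75e-09). CDK2 had 1.23, 2.87 and 2.64 CPM on day 30, against 39.6, 41.2 and 43.3 CPM on day 0. Day 30 replicate 1 was the lowest library for CDK2 as it was for CDK1, and the log2 change of CDK2 was −4.19 ± 0.24 (adjusted p = 5.02e-08). CCNE1 (cyclin E1) had 2.06, 3.47 and 2.45 CPM on day 30 and 22.4, 20.3 and 22.3 CPM on day 0. It fell by 2.98 on the log2 scale (adjusted p = 4.1e-07), and its relative CCNE2 fell by 4.56, with 0.414 ± 0.0379 CPM on day 30 against 10.4 ± 3.26 CPM on day 0. CCNE2 shares 1629 exonic bases with INTS8 on the other strand, which held 1410 reads on day 30 and 1706 on day 0. CCNF (cyclin F), the subunit of a ubiquitin ligase that activates no CDK, fell by 2.72 (11.3 ± 0.381 CPM on day 30 and 74.2 ± 4.04 CPM on day 0).

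CCNA1 (cyclin A1), best known from the male germ line, went against the other members. It had 9.36, 8.69 and 7.74 CPM on day 30, against 1.53, 1.6 and 2.34 CPM on day 0, with no overlap. The rise was 2.23 ± 0.27 on the log2 scale (adjusted p = 1.96e-05) and held under all 12 alternative settings. On day 30 CCNA1 was more abundant per length than CCNA2, at 4.89 ± 0.464 against 1.25 ± 0.32 CPM per kb of principal transcript (SD, n = 3). On day 0 the order was the other way, at 1.04 ± 0.255 CPM per kb for CCNA1 and 57.2 ± 7.27 for CCNA2. CDK3 had 3.19, 3.78 and 4.06 CPM on day 30 and 4.08, 3.68 and 2.60 CPM on day 0, which overlap. Its log2 change was 0.10 (adjusted p = 0.756), and 1644 of its exonic bases are also those of the readthrough gene TEN1-CDK3, so its count is uncertain. CCNB3 was not tested, with 19 reads on day 30 and 4 on day 0. Proliferation markers moved with these members, as all 8 fell, with summed levels of 34.5 to 68.6 CPM on day 30 and 1690 to 1800 CPM on day 0.

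**Figure D2:**
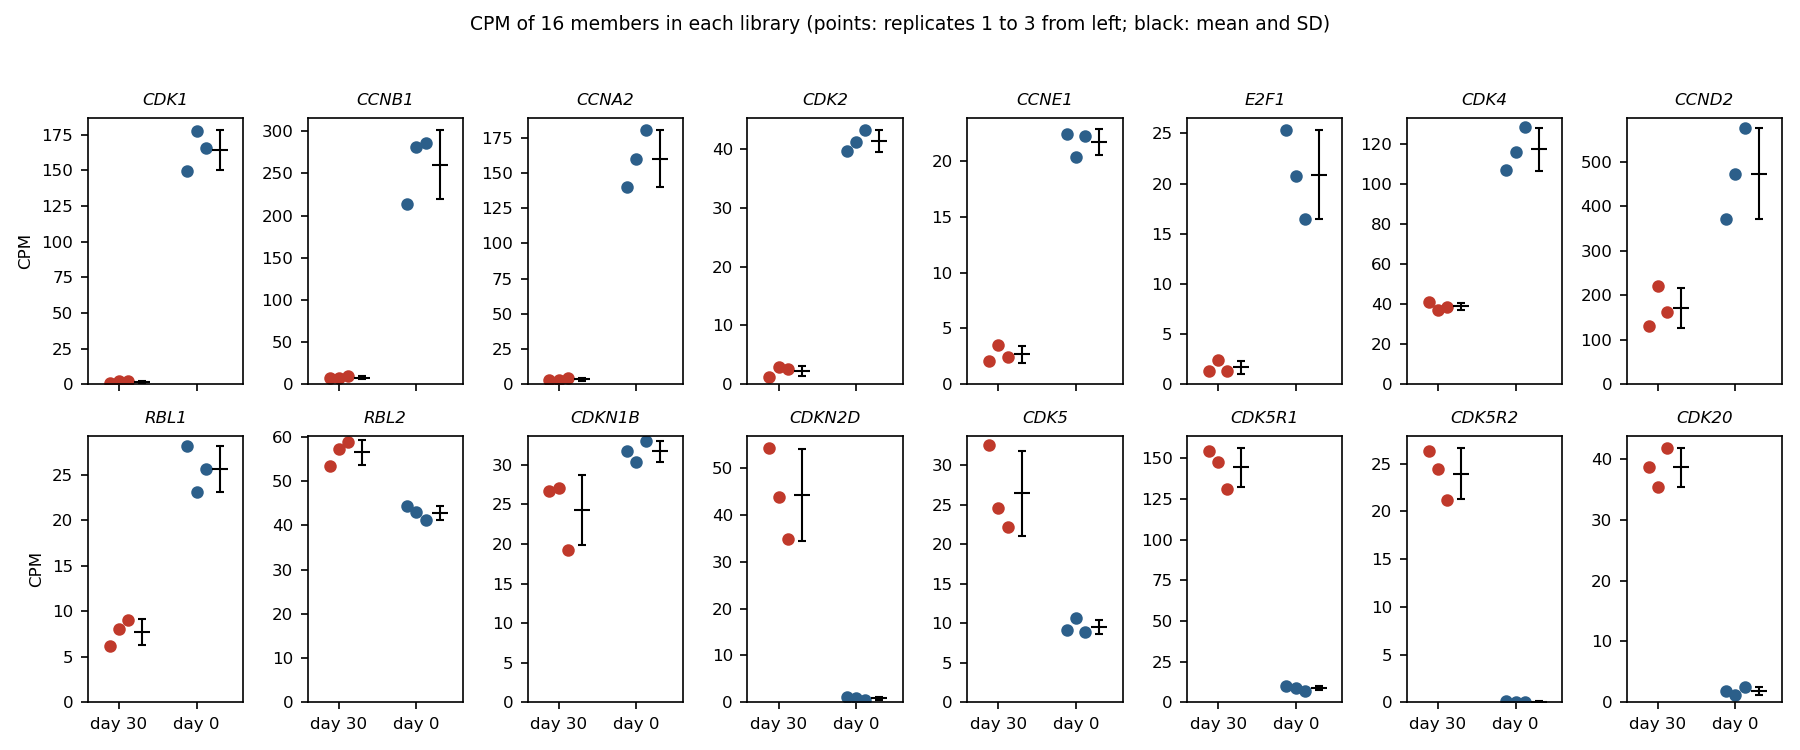
Each panel gives 1 of 16 members, with its CPM in the 3 day 30 libraries (red) left of the 3 day 0 libraries (blue) and the mean and SD as a black bar; every vertical axis is linear and starts at 0. CDK1, CCNB1, CCNA2, CDK2, CCNE1 and E2F1 lie near 0 on day 30, and CDKN2D, CDK5R1, CDK5R2 and CDK20 lie near 0 on day 0.

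The G1 members changed by smaller amounts. Of the D-type cyclins and their kinases, CDK4, CDK6, CCND1 and CCND2 fell and CCND3 did not pass, with a median log2 change of −1.12. Among all tested genes 36.8% fell, and 76.6% were called in either direction. CDK4 had 40.9, 37.2 and 38.8 CPM on day 30, against 107, 116 and 129 CPM on day 0. The libraries of each day lay close together, and the log2 change was −1.59 ± 0.11 (adjusted p = 3.58e-07). CDK4 shares 1369 exonic bases with TSPAN31 on the other strand, which held 734 reads on day 30 and 399.5 on day 0. CDK6 had 31.6, 68.7 and 74.0 CPM on day 30 and 115, 117 and 144 CPM on day 0, which is a log2 change of −1.12 ± 0.26 (adjusted p = 0.00229). CDK6 was lowest in day 30 replicate 1, and without that library the log2 change was −0.83 (adjusted p = 0.000185).

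CCND2 (cyclin D2) had 130.1, 220.5 and 162 CPM on day 30, against 372, 471 and 577 CPM on day 0. It fell by 1.47 ± 0.21 on the log2 scale (adjusted p = 7.09e-05), and 989 of its exonic bases are shared with the gene AC008012.1 on the same strand. CCND1 (cyclin D1) had 98.99, 122 and 93.0 CPM on day 30 and 130.0, 181 and 189 CPM on day 0, a smaller fall of 0.66 ± 0.16 (adjusted p = 0.00299). CCND1 and CCND2 stayed at 93.0 CPM or more in every library. Per length, CCND1 and CCND2 had 24.3 ± 3.61 and 26.4 ± 7.07 CPM per kb on day 30. CCNA2, CCNB1 and CCNE1 had 1.25 ± 0.32, 3.62 ± 0.78 and 1.30 ± 0.358 CPM per kb on day 30 (SD, n = 3). CCND3 (cyclin D3) had 11.8, 12.3 and 12.3 CPM on day 30 and 13.9, 9.3 and 11.6 CPM on day 0, which is a log2 change of 0.06 (adjusted p = 0.77). Of the per-length level of the 3 D cyclins, CCND2 made up 46.2% ± 4.47 on day 30 and 62.1% ± 1.92 on day 0 (SD, n = 3). CCND1 made up 43.3% ± 3.36 on day 30 and 33.0% ± 1.92 on day 0.

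E2F factors and pocket proteins fell in 8 of 10 cases, against 36.8% of all tested genes, with a median log2 change of −1.52. E2F1, E2F2 and E2F3 activate the genes of DNA replication, E2F4 and E2F5 act mainly as repressors with pocket proteins, and E2F7 and E2F8 are repressors made late in the cycle. E2F1 (ENSG00000101412.13, chromosome 20, 33675683 to 33686404) had 1.34, 2.45 and 1.32 CPM on day 30, against 25.4, 20.8 and 16.5 CPM on day 0. The log2 change was −3.53 ± 0.28 (adjusted p = 7.75e-07). E2F2 had 0.103, 0 and 0.189 CPM on day 30, against 8.92, 4.07 and 4.55 CPM on day 0. Those are 2 reads on day 30 and 135 on day 0, which after scaling is 83.5-fold lower on day 30 with a 95% counting interval of 22.7 to 696. Such an interval covers counting error only. E2F7 averaged 5.44 ± 1.3 CPM on day 30, against 53.7 ± 1.28 CPM on day 0. E2F8 averaged 0.236 ± 0.138 CPM on day 30, against 11.9 ± 2.65 CPM on day 0 (SD, n = 3). Their log2 changes were −3.28 ± 0.18 and −5.71 ± 0.41.

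Changes of the remaining E2F genes were smaller. E2F4 had 26.4, 23.0 and 27.6 CPM on day 30 and 60.2, 66.1 and 62.5 CPM on day 0, which is a log2 change of −1.30 ± 0.12 (adjusted p = 2.9e-06). E2F3 averaged 36.4 ± 1.44 CPM on day 30, against 66.3 ± 4.03 CPM on day 0. E2F5 averaged 20.2 ± 4.06 CPM on day 30, against 44.4 ± 3.47 CPM on day 0. Their log2 changes were −0.86 and −1.12. E2F5 shares 969 exonic bases with C8orf59 on the other strand, which held 514 reads on day 30 and 1128 on day 0. E2F6, a repressor that binds no pocket protein, had 26.0, 22.7 and 22.1 CPM on day 30 and 21.04, 23.4 and 23.4 CPM on day 0, so the days overlapped and it did not pass (log2 change 0.07, adjusted p = 0.663). Per length E2F4 was the most abundant E2F on both days, at 30.2% ± 4 of the summed E2F level on day 30 and 30.3% ± 0.74 on day 0, though its day 30 libraries overlapped with those of E2F5.

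The pocket proteins moved in opposite directions. RBL1 (p107), itself an E2F target in dividing cells, had 6.17, 8.01 and 9.06 CPM on day 30, against 28.2, 23.1 and 25.6 CPM on day 0. RBL2 (p130), the form that gathers in resting cells, had 53.3, 57.2 and 58.9 CPM on day 30, against 44.4, 43.0 and 41.1 CPM on day 0. RBL1 fell by 1.74 ± 0.18 (adjusted p = 5.64e-06), and RBL2 rose by 0.40 ± 0.11 (adjusted p = 0.00668). RBL2 shares 610 exonic bases with AKTIP on the other strand, which held 852 reads on day 30 and 358 on day 0. RB1, which is no member by its symbol, had 60.2, 62.3 and 60.6 CPM on day 30 and 33.9, 35.2 and 39.4 CPM on day 0, a rise of 0.76 ± 0.11. Of the summed per-length level of the 3 pocket proteins, RB1 made up 49.8% on day 30 and 36.3% on day 0. RBL2 made up 44.9% on day 30 and 42.0% on day 0, and RBL1 5.3% on day 30 and 21.7% on day 0.

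The inhibitors did not move together. Of 8 tested members with a CDKN name, 2 rose, 4 fell and 2 did not pass, with a median log2 change of −0.42. Among all tested genes 39.8% rose and 36.8% fell. CDKN2D (p19INK4d, ENSG00000129355.7, chromosome 19, 10566462 to 10569059), an INK4 protein that binds CDK4 and CDK6, had 54.1, 43.7 and 34.7 CPM on day 30, against 1.15, 0.872 and 0.492 CPM on day 0. It was 52.8-fold higher on day 30 (log2 change 5.71 ± 0.28, adjusted p = 2.04e-08). CDKN2B (p15INK4b) had 6.28, 25.4 and 19.3 CPM on day 30 and 1.15, 2.91 and 5.29 CPM on day 0. Its libraries spread widely on both days, and the rise was 2.43 ± 0.55 (adjusted p = 0.00195), or 3.09 without day 0 replicate 3.

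The CIP/KIP inhibitors CDKN1A and CDKN1B went slightly the other way. CDKN1A (p21) had 33.9, 64.8 and 58.8 CPM on day 30, against 77.1, 76.0 and 76.2 CPM on day 0. The day 0 libraries agreed closely and the day 30 libraries did not. Its fall of 0.54 ± 0.20 (adjusted p = 0.0296) held under 8 of 12 alternative settings, whose adjusted p ranged between 0.00108 and 0.0795, and it was 0.32 without day 30 replicate 1. CDKN1B (p27), which holds CDK2 in check in resting cells, had 26.7, 27.0 and 19.3 CPM on day 30 and 31.7, 30.4 and 33.0 CPM on day 0. Its fall of 0.37 ± 0.15 (adjusted p = 0.0445) held under 4 of 12 alternatives, with adjusted p between 0.0379 and 0.125, and it was 0.24 without day 30 replicate 3 (adjusted p = 0.125). Both remained at 19.3 CPM or more in every library, with no rise on day 30.

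CDKN2A (p16INK4a and p14ARF), whose region is also covered by the antisense RNA CDKN2B-AS1, had 0.103, 0.982 and 1.51 CPM on day 30 and 0.637, 1.31 and 1.35 CPM on day 0. These levels overlap and are near the detection limit (adjusted p = 0.526). CDKN2C was not tested, with 1 read on day 30 and 6 on day 0. CDKN3, a phosphatase that acts on CDKs and is no inhibitor of the INK4 or CIP/KIP type, had 0.617, 1.06 and 0.944 CPM on day 30, against 22.2, 21.9 and 22.1 CPM on day 0, and fell by 4.63 ± 0.23. CDKN2AIPNL fell by 1.20. CDKN2AIP had 16.98, 20.7 and 17.4 CPM on day 30 and 16.96, 19.3 and 24.1 CPM on day 0, so the days overlapped (log2 change −0.13, adjusted p = 0.505). Of the per-length level of the 6 CIP/KIP and INK4 genes that are members, CDKN2D made up 45.7% ± 11.4 on day 30 and 1.23% ± 0.494 on day 0 (SD, n = 3). CDKN1A made up 33.7% ± 9.33 on day 30 and 70.3% ± 1.25 on day 0.

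**Figure D3:**
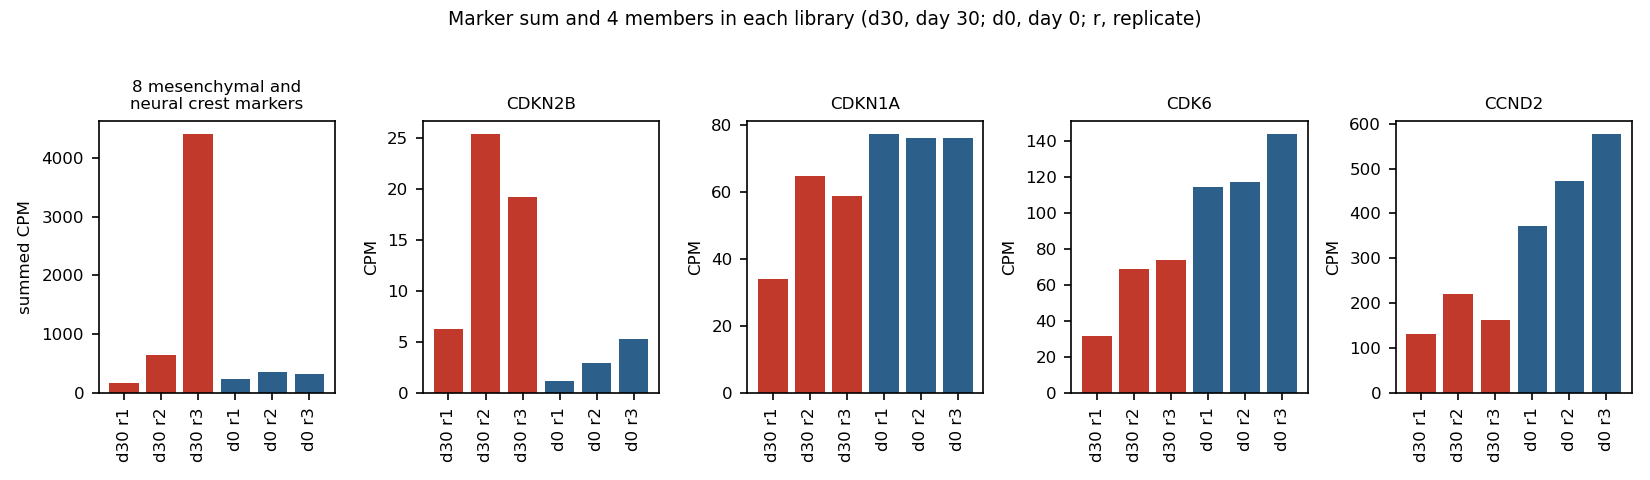
Bars give the summed CPM of 8 mesenchymal and neural crest markers and the CPM of CDKN2B, CDKN1A, CDK6 and CCND2 in each library, with day 30 (d30, red) left of day 0 (d0, blue) and r for the replicate. Day 30 replicate 3 stands apart in the marker sum at 4400 CPM, while day 30 replicate 1 is the lowest of the day 30 libraries for all 4 members.

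Among the day 30 libraries CDKN2B, CDKN1A, CDK6 and CCND2 scattered in a similar way. All 4 were lowest in day 30 replicate 1, which also had the lowest sum of mesenchymal and neural crest markers. They were not highest in replicate 3, where that sum was highest, except for CDK6. COL1A1, a defining collagen of mesenchymal cells, had 82.8, 245 and 1717 CPM on day 30, against 95.1, 91.7 and 118 CPM on day 0, and FOXD3 of the neural crest had no reads on day 30. The 6 astroglial markers summed to 35.2, 156 and 153 CPM in day 30 replicates 1, 2 and 3. On day 0 they summed to 703 to 1210 CPM. GJA1 made up most of these sums, with 31.1, 153 and 142 CPM on day 30 and 661, 898 and 1165 CPM on day 0. SLC1A3 had 2.98, 1.81 and 9.81 CPM on day 30, and GFAP was under 1 CPM on day 30. The proliferation sum (34.5, 48.6 and 68.6 CPM in replicates 1, 2 and 3) was lowest in day 30 replicate 1 too. So were the neural progenitor sum (979, 1180 and 1030 CPM) and the endothelial sum. The oligodendroglial and pluripotency sums were lowest in replicate 2, and the neuronal and arcuate sums in replicate 3. CDK1 and CDK2 were also lowest in replicate 1, while CDK4 and CDK5 were highest there. The part of any of these cells in the values of the 4 members was not tested.

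CDK5 and its kin rose in 5 of 9 tested cases and fell in the other 4, with a median log2 change of 0.35. Over all tested genes the shares were 39.8% higher and 36.8% lower. CDK5 (ENSG00000164885.13, chromosome 7, 151053812 to 151058530) is the kinase of neurons that no longer divide and needs CDK5R1 (p35) or CDK5R2 (p39) in place of a cyclin. CDK5 had 32.5, 24.5 and 22.2 CPM on day 30, against 9.18, 10.6 and 8.86 CPM on day 0. It rose by 1.48 ± 0.18 (adjusted p = 2.42e-05), and 331 of its exonic bases are overlapped by SLC4A2 on the other strand, which held 725 reads on day 30 and 1295 on day 0. CDK5R1 (ENSG00000176749.9, chromosome 17, 32486619 to 32491256) had 154, 148 and 131 CPM on day 30, against 9.94, 9.15 and 7.26 CPM on day 0. It was 16.4-fold higher on day 30 (log2 change 4.04 ± 0.15, adjusted p = 2.94e-09).

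CDK5R2 (ENSG00000171450.6, chromosome 2, 218959655 to 218962162) was the member with the largest rise. It had 26.3, 24.4 and 21.1 CPM on day 30, against 0.127, 0 and 0 CPM on day 0. Those are 691 reads on day 30 and 1 on day 0, a scaled ratio of 559 with a 95% counting interval of 100.0 to 22105. CDK5R2 made up 22.2% ± 0.494 of the per-length level of the 2 activators on day 30 and 0.721% ± 1.25 on day 0. The log2 changes of both activators were larger than that of CDK5, whose RNA was present at 9.55 ± 0.931 CPM on day 0. Neuronal markers moved with them, with a summed level of 5620 to 7060 CPM on day 30 and 172 to 202 CPM on day 0.

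The TAIRE kinases, relatives of CDK5 that pair with cyclin Y, were divided. CDK16 had 180.0, 169.6 and 158 CPM on day 30 and 136, 129.9 and 132 CPM on day 0, a rise of 0.35 ± 0.10 (adjusted p = 0.00861) that did not pass without day 30 replicate 1 (adjusted p = 0.0547). CDK17 rose by 0.86 ± 0.12, with 78.5 ± 6.93 CPM on day 30 against 43.2 ± 2.68 CPM on day 0. CDK18 fell by 2.51 ± 0.25, to 3.40, 4.68 and 3.21 CPM on day 30, against 29.1, 19.8 and 17.6 CPM on day 0. CDK14, which shares 201 exonic bases with CLDN12 on the same strand, averaged 19.4 ± 2.23 CPM on day 30, against 69.8 ± 15.9 CPM on day 0, and fell by 1.84 ± 0.18. The cyclin Y genes CCNY and CCNYL1 changed by −0.49 and −0.95. CDK15 was not tested, with 8 reads on day 30 and 1 on day 0.

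The transcription-associated cyclins and kinases had a median log2 change of −0.09, over changes in both directions between −1.74 and 1.05. Of 14 tested, 4 rose, 6 fell and 4 did not pass, so that 10 of 14 were called, a share near the 76.6% of all tested genes. CDK9, the kinase of P-TEFb that releases paused RNA polymerase II, had 36.2, 33.3 and 35.5 CPM on day 30 and 34.8, 36.3 and 34.8 CPM on day 0, so the days overlapped (log2 change −0.02, adjusted p = 0.907). Its cyclins shifted in opposite directions. CCNT1 (cyclin T1) had 78.8, 82.5 and 79.1 CPM on day 30 and 92.3, 92.8 and 115 CPM on day 0, a fall of 0.32 ± 0.12 (adjusted p = 0.0277) that held under 6 of 12 alternatives and was 0.21 without day 0 replicate 3 (adjusted p = 0.104). CCNT2 (cyclin T2) rose by 0.30 ± 0.10 (adjusted p = 0.0159), which held under 9 of 12.

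In the Mediator kinase module the kinases rose and their cyclin fell. CDK19 had 30.4, 28.2 and 24.3 CPM on day 30, against 15.2, 12.4 and 12.6 CPM on day 0, a rise of 1.05 ± 0.15 (adjusted p = 8.59e-05). Its paralog CDK8 rose by 0.45 ± 0.13, which held under 11 of 12 alternatives. CCNC (cyclin C), the partner of both, had 42.5, 40.4 and 41.0 CPM on day 30 and 122, 131 and 161 CPM on day 0, a fall of 1.74 ± 0.13 (adjusted p = 4.08e-07) and the largest in this group. CDK12, an elongation kinase, fell by 0.80 ± 0.10 and its cyclin CCNK by 0.74 ± 0.16, while the paralog CDK13 had a log2 change of 0.04 (adjusted p = 0.772). CDK12 averaged 85.4 ± 5.92 CPM on day 30, against 148 ± 5.51 CPM on day 0. CDK13 averaged 112 ± 5.12 CPM on day 30, against 109 ± 9.28 CPM on day 0. CCNK shares 4893 exonic bases with CCDC85C on the other strand.

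The cyclins L of splicing also parted, with CCNL2 (116 ± 16.7 CPM on day 30 and 73.7 ± 11.6 CPM on day 0) higher by 0.65 ± 0.15 and CCNL1 lower by 0.29 ± 0.10, a call that passed under 6 of 12 alternatives. CDK11B fell by 0.76 ± 0.14 and CDK11A had a log2 change of −0.05 (adjusted p = 0.852). These CDK11 genes are near-identical neighbours, so reads may be split between them and each value is uncertain. CDK11A also shares 2448 exonic bases on the same strand with AL031282.2, which held 816 reads on day 30 and 334 on day 0. CDK7, the CDK-activating kinase, was not tested, with 12 reads on day 30 and 8 on day 0. The cause of these low counts was not tested, and its partners were well covered. CCNH (cyclin H) had 32.7, 34.3 and 31.7 CPM on day 30 and 36.2, 38.7 and 33.6 CPM on day 0. Its log2 change was −0.13 (adjusted p = 0.331, edgeR). CCNH shares 771 exonic bases with RASA1 on the other strand, which held 2537 reads on day 30 and 1506 on day 0. MNAT1, which joins CDK7 and CCNH, fell by 0.46 ± 0.12.

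Of the other cyclins and kinases, CDK20, CCNG2, CDK10 and CCNI rose and CCNG1 and CCNJ fell. Among all tested genes 39.8% rose and 36.8% fell. CDK20 (ENSG00000156345.18, chromosome 9, 87966441 to 87974753), a kinase linked to primary cilia, had 38.6, 35.3 and 41.7 CPM on day 30, against 1.91, 1.16 and 2.46 CPM on day 0. It was 20.9-fold higher on day 30 (log2 change 4.35 ± 0.22, adjusted p = 2.27e-08). CCNG1 (ENSG00000113328.19, chromosome 5, 163437569 to 163446151), cyclin G1, had 71.5, 69.6 and 55.5 CPM on day 30, against 456, 563 and 622 CPM on day 0. Cyclin G1 fell by 3.06 ± 0.16 (adjusted p = 2.5e-08), while its paralog CCNG2, a FOXO target linked to cell-cycle exit, had 37.7, 36.9 and 41.3 CPM on day 30, against 15.2, 12.4 and 13.9 CPM on day 0, and rose by 1.48 ± 0.14. CDK10 averaged 25.3 ± 3.49 CPM on day 30 and 13.8 ± 3.3 CPM on day 0. It rose by 0.87 ± 0.19 and shares 183 exonic bases with AC010538.1 on the same strand, which held 138 reads on day 30 and 20.5 on day 0. CCNJ fell by 0.75 ± 0.13. CCNI (cyclin I) had 273, 259 and 203 CPM on day 30 and 159, 162 and 214 CPM on day 0. Its ranges overlap, and its rise of 0.46 (adjusted p = 0.0185) held under 8 of 12 alternatives. CCNI2 was not tested, with 14 reads on day 30 and 31 on day 0.

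Per length, the order of the kinases was rearranged. CDK16 was the most abundant of the 21 CDK genes on day 30, at 24.6% ± 1.08 of their summed level, against 12.6% ± 0.682 on day 0. CDK1 was the most abundant on day 0, with 25.7% ± 1.59, and ranked 19 on day 30, with 0.398% ± 0.158. CDK17, CDK4 and CDK20 followed CDK16 on day 30, at 18.9 ± 1.67, 18.8 ± 0.882 and 17.7 ± 1.46 CPM per kb (SD, n = 3), and these neighbours overlapped in their libraries. CDK5 ranked 6 on day 30, at 15.0 ± 3.08 CPM per kb, and 15 on day 0, at 5.43 ± 0.529. Among the cyclins CCNI led on day 30 with 23.4% ± 3.14 of the summed level, and CCNG1 led on day 0 with 24.4% ± 1.02.

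**Figure D4:**
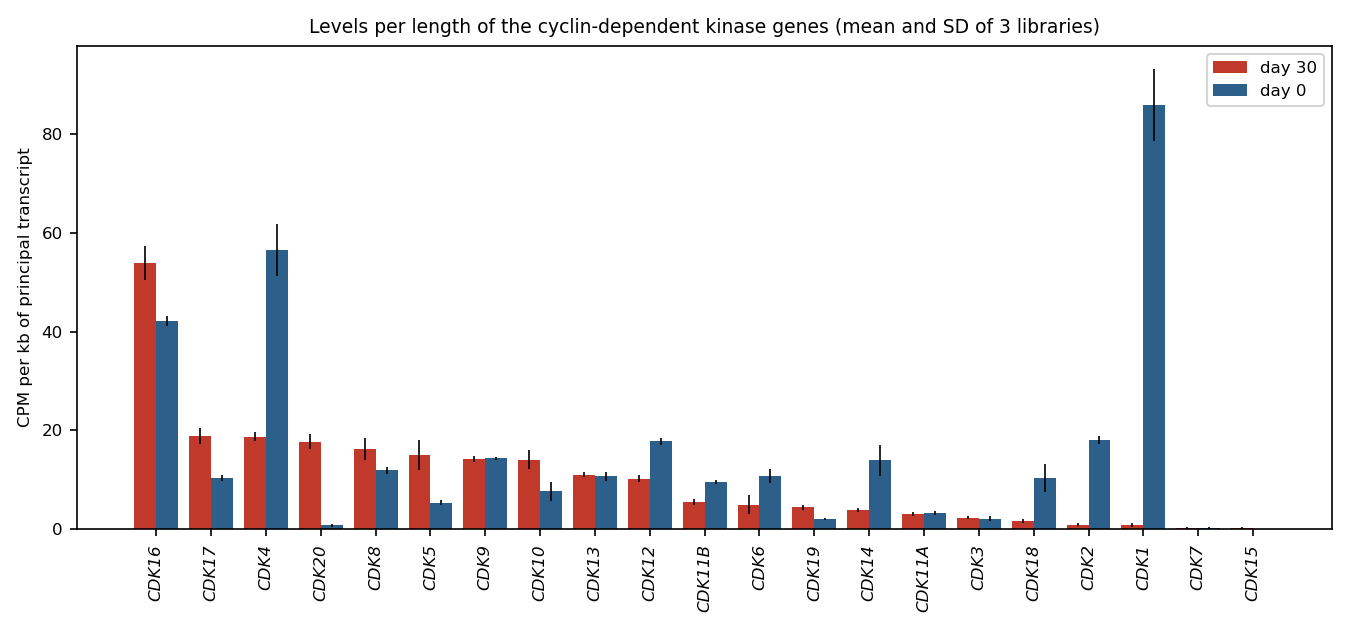
Bars give the mean level of each of the 21 CDK genes in CPM per kb of its principal transcript, day 30 (red) left of day 0 (blue), with the SD of 3 libraries as a line. The genes run by their day 30 level, CDK16 first; CDK1 is the tallest day 0 bar at 85.9 CPM per kb and stands at 0.865 on day 30.

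Summed per length over a role, the S and M phase members came to 16.9, 19.7 and 20.6 CPM per kb on day 30 and 327, 385 and 398 on day 0. The D-type cyclins and their kinases came to 71.1, 92.2 and 77.6 CPM per kb on day 30 and 156, 185 and 213 on day 0. The CDK5 and TAIRE group was the only role of the 7 with a higher sum on day 30, at 168, 160 and 145 CPM per kb against 116, 120 and 121 on day 0. The transcription-associated group came to 207, 220 and 221 CPM per kb on day 30 and 250, 252 and 258 on day 0. The ranges of the days did not overlap for any of the 7 roles, and the exact 2-sided permutation p was 0.1 for each, the smallest that 3 against 3 libraries allow.

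Ratios between related members do not depend on how the libraries are scaled. Of 12 pairs compared, 9 had day 30 and day 0 libraries that did not overlap, each with an exact permutation p of 0.1 (0.133 after Benjamini-Hochberg adjustment over the 12). The log2 ratio of CDK5 over CDK1 was 4.01 ± 0.915 on day 30 and −4.10 ± 0.104 on day 0. That of CCNG2 over CCNG1 was −0.76 ± 0.287 on day 30 and −5.30 ± 0.339 on day 0, and that of RBL2 over RBL1 was 2.87 ± 0.209 on day 30 and 0.74 ± 0.132 on day 0. CDK12 over CDK13 was −0.39 ± 0.067 on day 30 and 0.45 ± 0.172 on day 0, so the order of this pair turned. CCNT2 over CCNT1 turned as well, with 0.29 ± 0.069 on day 30 and −0.33 ± 0.187 on day 0.

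CCND2 over CCND1 was lower by 0.82 on day 30, and CDK19 over CDK8 was higher by 0.61. CDK5R2 over CDK5R1 was higher by 3.94 and CDK7 over CDK1 by 6.84, and both of these large shifts rest on few reads, of CDK5R2 on day 0 and of CDK7 on both days. CDK6 over CDK4 was −0.37, 0.88 and 0.93 on day 30, against 0.1, 0.01 and 0.16 on day 0 (exact permutation p = 0.4). CCND3 over CCND1 (p = 0.2, exact permutation) and CDKN1B over CDKN1A (p = 0.8, exact permutation) overlapped between the days too. A p of this size does not show that these ratios were alike.

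Partners of the members outside these family names were counted from fixed lists. Beside the counts of each list stand the shares of all tested genes, of which 39.8% rose and 36.8% fell. Of 8 CDK phosphatases, inhibitory kinases and adaptors, 7 fell and 1 rose, with a median log2 change of −3.52. PKMYT1, a kinase that holds CDK1 inactive, had a log2 change of −5.03, the lowest, and CDC25B, a phosphatase that activates CDKs, rose by 0.82. The CDK adaptors CKS1B and CKS2 changed by −4.88 and −4.82 on the log2 scale, and WEE1 and CDC25A by −2.22 and −1.72. Of 8 ubiquitin ligase parts, 5 fell and 3 rose. CDC20, the activator of the anaphase-promoting complex in mitosis, had 0.617, 1.21 and 4.15 CPM on day 30 and 132, 127 and 130.1 CPM on day 0. FZR1 (CDH1), the activator used in G1 and in resting neurons, had 81.3, 71.7 and 86.1 CPM on day 30 and 24.9, 23.7 and 18.1 CPM on day 0. CDC20 fell by 6.31 and FZR1 rose by 1.84, so these 2 activators of 1 ligase parted. SKP2, which marks CDKN1B for degradation, fell by 1.99, and FBXW7, which marks cyclin E, rose by 0.62.

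Of 10 genes of RB1, its DP partners and the MuvB complex, 3 rose, 5 fell and 2 did not pass. The falls were led by FOXM1 and MYBL2, which drive the mitotic genes, at −6.56 and −6.21 on the log2 scale, and the rises by LIN37, at 2.04, a MuvB subunit that acts in repression. TFDP1, the DP partner of E2F factors, fell by 1.28. Of 11 partners of the transcription kinases, 2 rose, 4 fell and 5 did not pass, with a median of −0.08. MED12, which activates CDK8, rose by 0.82 while its paralog MED12L fell by 0.71, and AFF4 rose by 0.73 while AFF1 fell by 1.72, both of them scaffolds of the super elongation complex.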

How the data were processed

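Total RNA for 6 libraries came from TRIzol lysates, was rid of ribosomal RNA and was sequenced on an Illumina NovaSeq from TruSeq stranded libraries, per the labels' protocols. FastQC 0.11.9 and hg38 come from the submitters' processing notes. Not given in the sources used here were the aligner, counter, annotation and strand setting. Whether the counting kept reads of overlapping genes on opposite strands apart is therefore not known. Overlaps are given above for some members only. Others also share exonic bases with a gene on the other strand, such as CCNA2 with EXOSC9 (254 bases) and CDK2 with PMEL (89 bases). The deposited values were treated like expected counts, since not all are whole: 92.6% of all values and 83.7% of those above 0 are exactly whole. Raw counts had been planned for, and the values were rounded for the tests. Symbols were found for 42127 of 61853 genes, and 58280 (94.2%) matched GENCODE 29, the source of positions and transcript lengths. Columns of values not used numbered 0.

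Genes were tested in R 4.3.3 with edgeR 4.0.16 (quasi-likelihood, TMM, filterByExpr, 2-sided), which kept 18040 genes, with a biological coefficient of variation of 0.153. CPM is per 1000000 counts of the TMM-scaled library. Errors of log2 changes are approximate, as the change divided by the square root of F. Levels between genes use the longest APPRIS principal transcript. Log ratios add 0.5 reads to each count. Exact permutation tests used scipy 1.17.1, and scripts were tested on simulated data. Alternatives were DESeq2 1.42.0 (its test and its size factors), library totals, other filters, a replicate block and leaving out each library. Depth limits genes of a few reads: 5 members were left untested by the filter.

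The members and gene lists were chosen with earlier results of these data known. Values in every library were given for a fixed set of cell-cycle members, and in each role for the largest fall, the largest rise and the member nearest to 0. Further genes of the pathway lists were chosen after their values were seen, as were the 6 arcuate markers. The result of 1 further list is not reported here.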

Additional observations from a re-analysis of the deposited data

How the results depend on the processing

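Over 12 alternative settings, 45 of the 53 called members kept their call under each (32 lower, 13 higher). The other 8, all with small changes, lost it under at least 1: CDKN1A, CDKN1B, CDK16, CCNL1, CCNT1, CCNT2, CDK8 and CCNI. Between 14 and 17 members rose and between 32 and 36 fell over all 12. Leaving out 1 library gave 14 to 17 risen and 33 to 35 fallen members, and 6685 to 7074 risen and 6216 to 6517 fallen genes of all tested. Members that had not passed changed sign in some settings without passing. With library totals, CDK9 was at 0.077 and CDK11A at 0.041 on the log2 scale, and with DESeq2 CDK13 was at −0.0058. With 1 library left out, log2 changes ranged between −0.073 and 0.25 for CDK3, −0.069 and 0.21 for CCND3, −0.029 and 0.11 for E2F6, −0.87 and 0.080 for CDKN2A, −0.24 and 0.026 for CDKN2AIP, −0.062 and 0.020 for CDK9, −0.17 and 0.058 for CDK11A, and −0.018 and 0.10 for CDK13. The cause was not tested. The log2 ratio of CDK5R2 over CDK5R1 was higher on day 30 by 2.32 with 2 reads added in place of 0.5, which weighs on the 1 read of CDK5R2 on day 0. CDKN1B over CDKN1A ranged between −0.16 and 0.47 with 1 library left out. E2F2 fell by 5.29 without day 30 replicate 2 and by 6.68 without replicate 3, and CDK5R2 rose by 10.70 without day 0 replicate 1.

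Same-numbered libraries did not deviate together (correlations 0.0815, −0.0077 and −0.0595), so the numbers were not taken to pair them. With a replicate block, 17 members rose and 33 fell, and 6921 genes of all tested rose and 6415 fell. CDKN1B, CCNL1 and CCNT1 did not pass under the block (adjusted p = 0.062, 0.0573 and 0.0588, edgeR). The filter planned as stricter, at 1 CPM in 3 libraries, kept 18758 genes, more than the 18040 tested. Library totals moved the median of all genes by 0.09 on the log2 scale and DESeq2 size factors by −0.02.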
